A study of Mus musculus with 48 samples.

Results

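Reactive astrocyte and acute phase genes are the set Lcn2, Saa3, Gfap, Vim, Serpina3n, Cd44, C3, Timp1 and Steap4, and every probe whose array annotation carries 1 of these symbols was taken. The annotation gives 20 such probes among the 46632 on the array, for 8 of the 9 genes, and none for C3. Of the 20, 9 probes of 7 genes were detected on enough arrays to be tested (detection p under 0.01 on at least 6 of 48 arrays), and 10 probes were detected on 0 arrays. All values are log2 bead intensity after background correction and quantile normalization, so a difference of 1 is a doubling.

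The 48 Illumina arrays measured RNA from cortical neurons of CD-1 mice, an outbred stock, kept for 7 days in culture. All groups received NMDA, the agonist of a glutamate receptor that kills neurons by overstimulation, for 1 h, after 1 h with a compound or solvent, and recovered for 16 h. No array without NMDA was analysed here, so nothing below measures the response to NMDA itself. The labels give a protective class of 14 compounds, 4 of them labelled NMDAR antagonist (Ifenprodil, MK-801, Riluzole and Memantine). The non-protective class holds 6 compounds, 5 controls with no compound in water (mock) and 5 vehicle controls in DMSO. Another 16 compounds on 18 arrays, with protection ratios of 1.02 to 1.38, lie between the classes and are called intermediate. Compounds have 1 array each, but Z-VAD-FMK has 2 and so does MitoPBN, whose repeat the labels call MitoPBN2. The labels give the MitoPBN arrays different ratios, 1.07 and 1.16, and treating them as repeats of 1 compound is a choice made here. Doses were not stated in the labels. The labels do not say that arrays of a group came from separate cultures, so p-values measure only the spread between these arrays. That spread may be technical, and in the compound groups it also holds differences between compounds.

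Astrocytes are the support cells of the brain, and after injury they enlarge their filament skeleton and switch on secreted and surface proteins, a state called reactive. Signals of the interleukin-6 family acting through STAT3, and of interleukin-1 and TNF acting through NF-kB and C/EBP factors, are known to drive many of these genes. The acute phase response is the matching programme in liver, where proteins such as serum amyloids are poured into blood. Cultures made as neurons also hold some astrocytes. Of 13 astrocyte markers, 12 had a tested probe and 10 were detected on all arrays, while Aldh1l1 has no probe in the annotation, and all 8 neuron markers were detected on all arrays. In RNA from a whole culture, fewer cells of a type and less RNA per cell cannot be told apart.

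Before normalization the arrays had median signals of 36.1 to 124. The Clofibric acid and Nimodipine arrays lay farthest from the others, with median correlations of 0.906 and 0.927 to the other arrays, against 0.938 to 0.966 for the remaining 46. Of the probes of Clofibric acid 7.7% met the rule for single arrays given below on the high side and 7.17% on the low side. For Nimodipine these shares were 6.89% and 7.98%. Without Nimodipine no member of the 7 tested passed the threshold in a contrast that held it, as with it.

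Lcn2 encodes lipocalin 2, a secreted protein that binds iron-carrying siderophores and is released by reactive astrocytes. Its probe was detected on 48 of 48 arrays and ranged from 6.20 to 10.31, a 17.2-fold spread. Its SD of 0.98 over the arrays was larger than that of 99.2% of the probes tested. The Minocycline array was the highest and the Clofibric acid array the lowest.

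The 5 mock controls read 6.81, 7.16, 7.76, 7.78 and 8.53 for Lcn2, and the 5 vehicle controls 7.84, 8.95, 9.20, 9.30 and 9.44. Of the vehicle arrays, 4 lay above every mock array, and the lowest vehicle array lay inside the mock range. The means were 8.95 ± 0.64 (SD, n = 5) and 7.61 ± 0.66 (SD, n = 5), a difference of 1.34 (SE 0.35). An exact two-sided permutation test over the 252 splits of the 10 arrays gave p = 0.0159 for Lcn2, unadjusted. The limma fit over all probes gave an adjusted p of 0.182, so the gene did not pass. In that fit 0 of the 7 members and 0% of all 17815 probes passed, against 3554 probes with an unadjusted p under 0.05.

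The only chips that hold both kinds of control are chips 1 and 2. Lcn2 was higher in the vehicle array by 2.28 on the former and by 2.39 on the latter. On both, mock is at position A and vehicle at position B, so solvent and position cannot be told apart there. The other vehicle arrays lie on chips 6 to 8 and the other mock arrays on chips 3 to 5. The 11 compound arrays in DMSO, which include the repeat arrays of Z-VAD-FMK and MitoPBN, read 6.40 to 9.70 with a median of 7.93, a range that overlaps that of the vehicle controls, 7.84 to 9.44. Their mean Lcn2 was 7.89 ± 0.97 (SD, n = 11), beside 8.04 ± 1.10 (SD, n = 18) for compounds in water and 7.46 ± 0.65 (SD, n = 9) for those in ethanol, and no test was run between solvents for the compounds. The other 6 tested members had exact permutation p of 0.238 to 0.698 in the same contrast of controls. On chips 1 and 2 they too were higher in the vehicle array, by 0.105 to 0.842, save Vim on chip 1 (-0.171). Over all controls the difference was negative for Gfap, Vim, Serpina3n and Cd44.

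The wide control range bounds what a single array can show for Lcn2. The 10 controls spanned 6.20-fold (6.81 to 9.44), and a compound array is named here when it lies outside all 10 controls and at least 1 log2 unit from their mean of 8.28. Over all tested probes and 38 compound arrays, 1.7% of values met this on the high side and 2.39% on the low side. For Lcn2, 3 of 38 arrays were higher and 5 were lower.

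The 3 arrays with high Lcn2 were Minocycline, a tetracycline antibiotic, at 10.31, Interferon-a2b at 10.12 and the first Z-VAD-FMK array at 9.70. The repeat array of Z-VAD-FMK, a caspase inhibitor, read 7.42, a gap of 2.28 between repeats. The repeats of MitoPBN differed by 0.16. Low values were seen with Clofibric acid at 6.20, Benzamide at 6.40, Flecainide at 6.52, Citicoline at 6.64 and Azathioprine at 6.65. These 8 arrays come from both classes and the intermediate compounds, and none is labelled NMDAR antagonist. Benzamide is protective, Flecainide and Citicoline are non-protective, and the other 5 arrays are intermediate. With 1 array a compound there is no test of these values, and the gap between the Z-VAD-FMK repeats is larger than the distance of any of the 8 arrays beyond Lcn2's control range.

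Saa3 encodes serum amyloid A3, an acute phase apolipoprotein that mice make outside the liver, in macrophages and other cells. It was detected on 35 of 48 arrays, with a range of 4.94 to 8.16. The 10 controls read 5.04 to 6.24 for Saa3. FK-506, an immunosuppressant, gave 8.16, Citicoline 7.79 and Agmatine 7.16. These 3 arrays met the rule for single arrays on the high side and 0 on the low side. FK-506 is intermediate and the other two are non-protective compounds. Interferon-a2b, at 6.81, and Necrostatin-1, at 6.41, also exceeded all controls by less than that rule asks.

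High Lcn2 and high Saa3 were mostly found on different arrays. Citicoline had the second highest Saa3 and a Lcn2 below all controls. FK-506 had a Lcn2 of 8.26, close to the control mean, and Interferon-a2b was above all controls for both genes. Over 48 arrays the genes' Pearson r was 0.15 and Spearman's rho 0.26, with permutation p of 0.299 and 0.0742 (adjusted over 21 pairs of members 0.522 and 0.223), and r was 0.11 without the 2 arrays farthest from the median of Lcn2. Over the 10 controls alone r was 0.65 and rho 0.70, with permutation p of 0.0399 and 0.0301 (adjusted over 21 pairs 0.249 and 0.158), and r was 0.59 without the 2 farthest controls. The promoters of both genes are shown because these are the acute phase members with single arrays far above the controls. Each is given 5′ to 3′ on its own strand from RefSeq (GRCm38.p6), 250 bases before to 50 bases after the start, at chr2:32387690-32387989 (minus strand) for Lcn2 and chr7:46715627-46715926 (minus strand) for Saa3. The start that RefSeq's table uses for Saa3, at base 46715676, lies 3939 bases inside the outer end of the annotated gene (46711998 to 46719615), while that of Lcn2 is the gene's outer end. Capitals mark matches to the C/EBP motif TTGCNNAA on either strand.
Lcn2: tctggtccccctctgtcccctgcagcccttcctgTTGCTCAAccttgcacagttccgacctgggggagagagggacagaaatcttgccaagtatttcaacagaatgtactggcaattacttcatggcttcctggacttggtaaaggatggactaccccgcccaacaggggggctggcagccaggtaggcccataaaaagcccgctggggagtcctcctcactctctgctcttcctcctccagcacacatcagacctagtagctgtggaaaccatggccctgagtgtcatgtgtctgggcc
Saa3: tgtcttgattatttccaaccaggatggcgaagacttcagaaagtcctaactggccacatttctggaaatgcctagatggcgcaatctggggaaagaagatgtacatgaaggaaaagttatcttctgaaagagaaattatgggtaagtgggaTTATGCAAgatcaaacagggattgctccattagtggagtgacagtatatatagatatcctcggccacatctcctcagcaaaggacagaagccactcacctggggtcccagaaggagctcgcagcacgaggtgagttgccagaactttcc

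Each of these promoters holds 1 match, TTGCTCAA starting at -216 in Lcn2 and TTATGCAA, read on the opposite strand, at -99 in Saa3. Of 32544 mouse promoters of the same length, 10.8% hold such a match. Neither window held the STAT motif TTCNNNGAA, the NF-kB motif (GGG and TTCC with any 3 bases between them) or the AP-1 motif TGANTCA. A match is a run of letters and not a measured binding site.

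**Figure D1:**
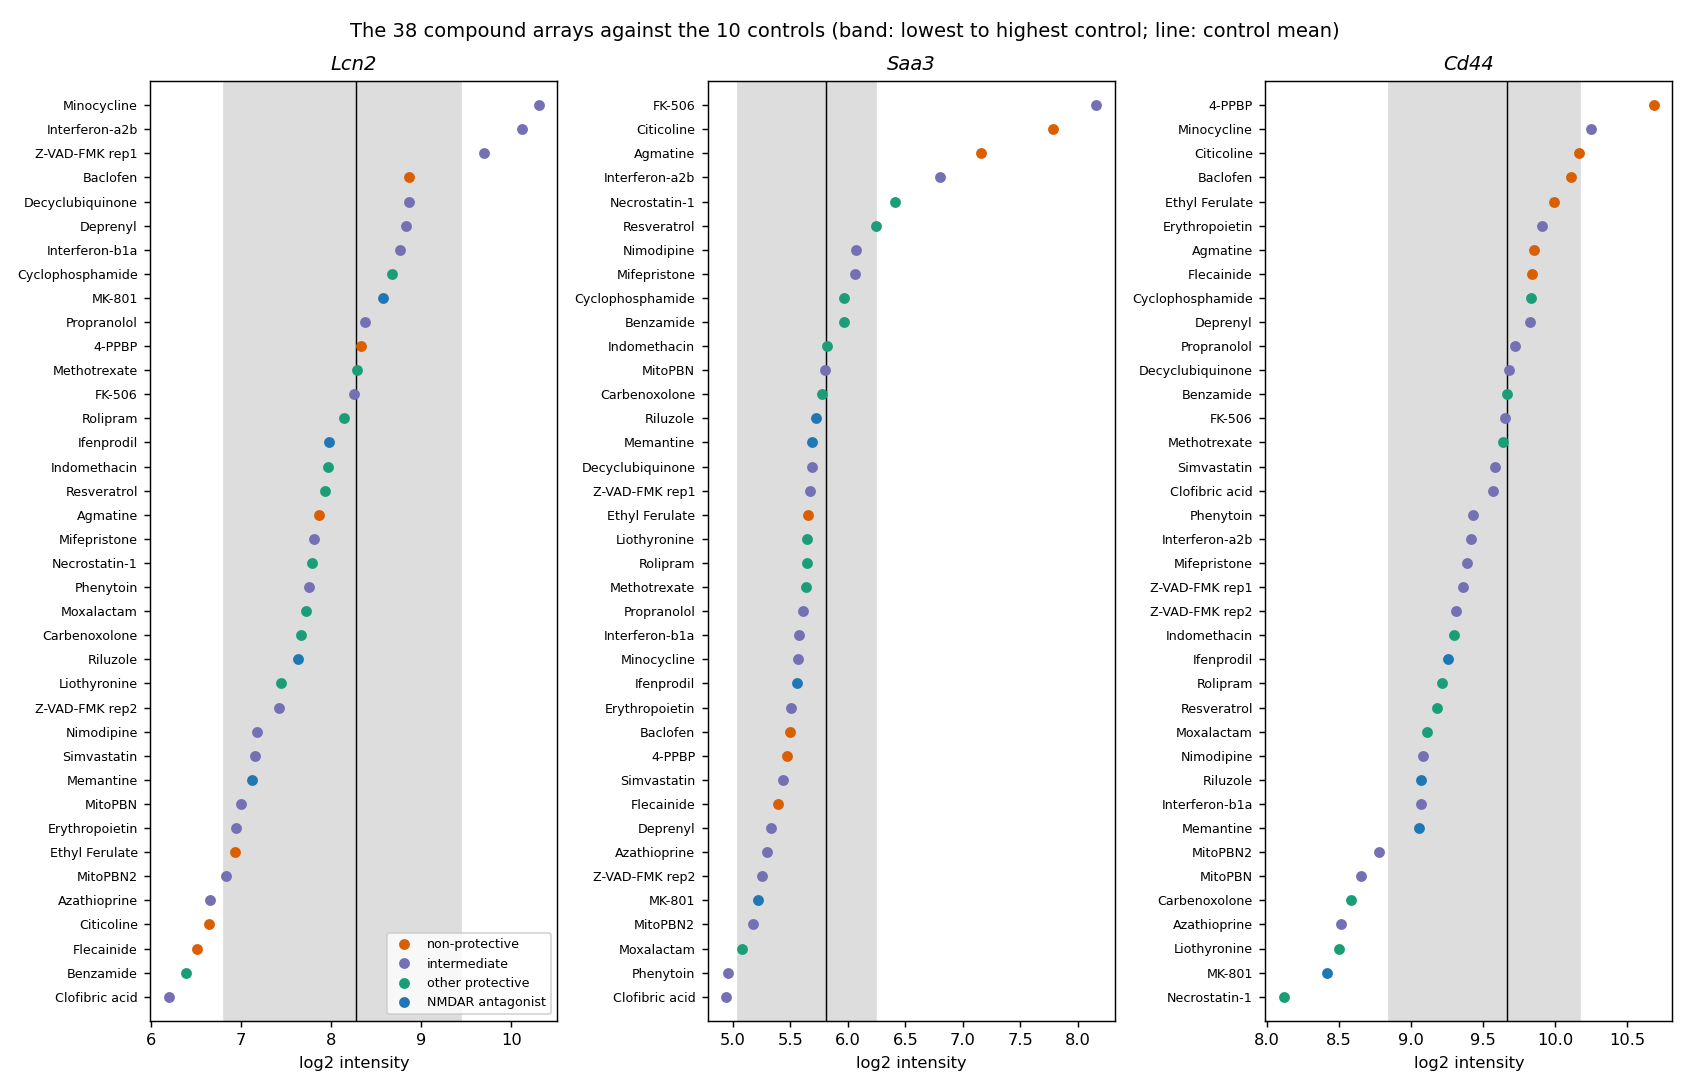
Each point is the log2 intensity of 1 compound array for Lcn2, Saa3 and Cd44, sorted within a gene and coloured by group, with the range of the 10 controls as a grey band and their mean as a line. For Lcn2, 3 arrays lie above the band and 5 below it, for Saa3 5 lie above and 2 below, and for Cd44 2 lie above and 7 below.

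Other acute phase genes gave little signal. Of 16 further genes, 13 had a probe and only 2 were tested. Saa1, Saa2, Orm1, Orm2, Crp, Hpx, Fga, Fgb, Fgg, Itih4 and Cfb were below the detection filter. Steap4 encodes a membrane metalloreductase that takes part in iron and copper uptake. Its 2 probes were detected on 1 and 0 of 48 arrays, so it was not tested, and an effect on it was not measurable here.

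Gfap encodes the glial fibrillary acidic protein, the intermediate filament that defines astrocytes. Its brighter probe was detected on all arrays, with a range of 11.34 to 13.37. The mock controls read 11.70, 11.95, 12.18, 12.20 and 12.69, and the vehicle controls 11.73, 11.79, 12.11, 12.34 and 12.34. The 6 non-protective compounds read 11.84, 12.56, 12.58, 12.71, 13.30 and 13.37 for Gfap. Of these compounds, 3 lay above every control and the other 3 lay among them. The difference from the controls was 0.62 (SE 0.21, 95% interval 0.20 to 1.04), with an unadjusted p of 0.00516 and an adjusted p of 0.644 by limma, so it did not pass. In that comparison 0 of 7 members passed and 0.0168% of all probes did, and 1 member had an unadjusted p under 0.05. The second Gfap probe gave 0.33 (SE 0.23). A single-array difference of at least 1 log2 unit was seen for Gfap with Citicoline at 13.37, Baclofen at 13.30 and Clofibric acid at 13.11.

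In the protective class Gfap differed from the other class by -0.07 (SE 0.16, 95% interval -0.40 to 0.26, adjusted p = 0.817 by limma), a sign that turned with median scaling (0.03). The 4 antagonists read 11.89, 12.14, 12.25 and 12.77. Ifenprodil, the highest, lay above every control and the other 3 lay among the controls. The 10 other protective compounds ran from 11.34 (Necrostatin-1) through a median of 12.27 to 12.89 (Cyclophosphamide).

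Vim encodes vimentin, the intermediate filament of immature and reactive astrocytes and of many other cells. It had the narrowest range of the tested members, 12.57 to 13.89, a 2.49-fold spread, and 0 of 38 compound arrays met the rule for single arrays. Of these arrays 9 lay below every control and 0 above. Its mean was higher than that of 99.7% of the probes tested. After quantile normalization some arrays share 1 value, such as Flecainide and Minocycline at 13.57. Whether the normalization narrows the range of Vim was not tested. The protective class differed from the non-protective class by -0.19 (SE 0.10, adjusted p = 0.199 by limma). Liothyronine, a thyroid hormone, was lowest at 12.57 and Nimodipine, a calcium channel blocker, next at 12.60. A second Vim probe was detected on 0 arrays.

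Serpina3n encodes a secreted serine protease inhibitor that is a common marker of reactive astrocytes. It ranged from 8.87 (Minocycline) to 11.31 (Simvastatin, a statin), against 9.92 to 10.81 in the 10 controls. These are the arrays that met the rule for single arrays, 1 in each direction. Minocycline thus had the highest Lcn2 and the lowest Serpina3n of the 48 arrays. The classes differed by -0.15 (SE 0.13, adjusted p = 0.497 by limma), and the antagonists and controls by -0.33 (SE 0.20, adjusted p = 0.252 by limma). The 4 antagonists read 9.80, 9.89, 10.07 and 10.16 for Serpina3n, all below the control median. MK-801 and Riluzole lay below every control and the other 2 inside the control range.

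Timp1 encodes a secreted inhibitor of matrix metalloproteinases. The mock controls read 7.58, 7.77, 7.93, 8.09 and 8.13, and the vehicle controls 7.73, 7.81, 8.31, 8.32 and 8.34. The antagonists read 6.94 (MK-801), 7.19 (Ifenprodil), 7.34 (Riluzole) and 7.87 (Memantine). Of the 4 antagonists, 3 lay below all 10 controls and Memantine lay inside their range.

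The difference for Timp1 between antagonists and controls was -0.67 (SE 0.19, 95% interval -1.07 to -0.27), with an adjusted p of 0.0175 by limma. Timp1 was the 1 of 7 members to pass in this comparison, where 19.3% of all probes passed and 8.13% passed on the low side. The call was lost without Ifenprodil (-0.62, adjusted p = 0.0747 by limma), without MK-801 (-0.53, adjusted p = 0.112 by limma) and with the position on the chip as a term (-0.60, adjusted p = 0.323 by limma). All 8 arrays at position A are controls, the other 2 controls are at position B, and the antagonists are at positions D, E and F. On the 3 chips that hold both groups the differences for Timp1 ran from -0.79 to 0.07, negative on 2.

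Timp1 in the 10 other protective compounds ran from 7.18 through a median of 7.60 to 8.23, and 5 of the 10 lay below every control. The difference from controls was -0.39 (SE 0.15, adjusted p = 0.19 by limma), in a comparison where 0 of 7 members and 0.831% of probes passed and 2 members had an unadjusted p under 0.05. The antagonists and the other protective compounds differed by -0.28 for Timp1 (95% interval -0.68 to 0.12, adjusted p = 0.477 by limma), where 0 of 7 members and 5.75% of probes passed. None of the 7 members had an unadjusted p under 0.05 in that contrast. Low Timp1 was not limited to protective compounds: of the 38 compound arrays 18 lay below every control, and the lowest was the intermediate MitoPBN at 6.77, whose repeat read 7.54. Of these 18 arrays 2 met the rule for single arrays, which 2.39% of values over all probes met on the low side. For arrays below every control at any distance the share over all probes was not computed. The highest was the first Z-VAD-FMK array at 8.93, with its repeat at 7.91.

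Cd44 encodes the cell surface receptor for hyaluronan, a sugar polymer of the extracellular matrix, and is raised in reactive astrocytes. The mock controls read 9.62, 9.67, 9.74, 9.94 and 9.99, and the vehicle controls 8.85, 9.28, 9.44, 9.99 and 10.18. The 6 non-protective compounds read 9.84 to 10.69, with a median of 10.05. The protective class ran lower: the antagonists read 8.42 (MK-801), 9.06 (Memantine), 9.07 (Riluzole) and 9.26 (Ifenprodil), and the 10 other protective compounds 8.12 (Necrostatin-1) to 9.83 (Cyclophosphamide), with a median of 9.20. The highest protective and the lowest non-protective compound (Flecainide, 9.84) were almost level, and protective compounds and controls overlapped.

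Over the classes, 14 against 16 arrays, Cd44 was lower in the protective class by -0.76 (SE 0.16, 95% interval -1.09 to -0.44, adjusted p = 0.0147 by limma). All 14 protective arrays lay below the median of the non-protective class, and 4 lay below its lowest array. Cd44 was the 1 of 7 members to pass, in a comparison where 7.63% of all probes passed and 3.42% passed on the low side. The other 6 members differed by -0.38 to -0.07, with Timp1 next at -0.38 (adjusted p = 0.0608 by limma). The median of the 7 members was -0.19, beside -0.01 for all probes tested.

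The direction for Cd44 held on each of the 7 chips that carry both classes, with differences of -1.15 to -0.41, and with the chip as a block the call stood (-0.71, adjusted p = 0.0374 by limma). The call was lost with position as a term (-0.79, adjusted p = 0.348 by limma), without the 4 antagonists (-0.72, adjusted p = 0.167 by limma) and without the 10 controls (-1.04, adjusted p = 0.35 by limma). In each of these 3 fits 0 probes passed in all.

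Set against controls alone, the antagonists had a Cd44 difference of -0.71 (SE 0.26, adjusted p = 0.0566 by limma) and the other protective compounds -0.55 (SE 0.20, adjusted p = 0.173 by limma). The non-protective compounds were at 0.44 (SE 0.22, adjusted p = 0.803 by limma). These comparisons share the 10 controls, and none of the 3 passed for Cd44. A slope of Cd44 on the log2 protection ratio over 36 compounds was -0.63 per doubling of the ratio (SE 0.20, unadjusted p = 0.00372, adjusted p = 0.847). In the slope fit 0 of 7 members and 0% of probes passed, against 951 probes with an unadjusted p under 0.05.

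Cd44 is the member with the most probes, 10 in the annotation. Of these, 8 were detected on 0 arrays and 2 were tested. The brighter one, used above, was detected on 48 arrays and the dimmer one on 23. The dimmer probe was detected on 23 of the 30 arrays of chips 1 to 5 (4.96 to 7.29) and on 0 of the 18 arrays of chips 6 to 8 (4.37 to 4.79). The brighter probe had no such step, with means of 9.53 ± 0.54 (SD, n = 30) and 9.31 ± 0.53 (SD, n = 18). For the dimmer probe the class difference was -0.58 (adjusted p = 0.182 by limma), which did not pass. For the brighter probe the class difference was -0.79 on chips 1 to 5 alone (adjusted p = 0.016 by limma) and -0.61 on chips 6 to 8 alone (adjusted p = 0.611 by limma). That split of chips was chosen after the values were seen, and why the dimmer probe differs between chips was not tested.

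**Figure D2:**
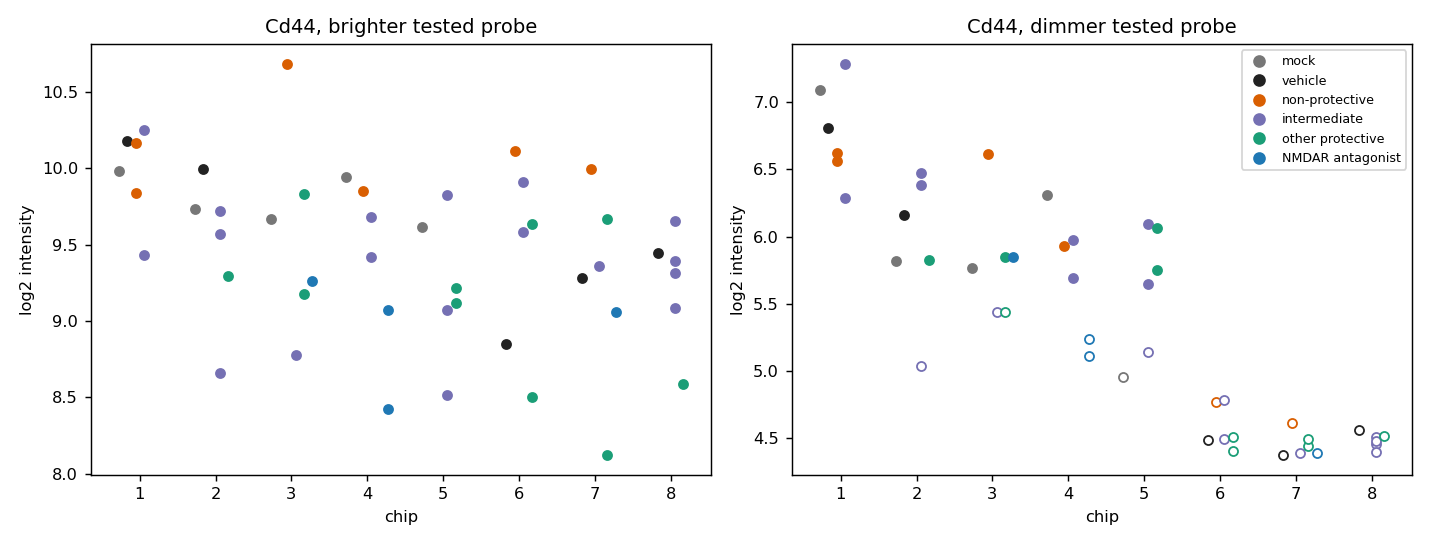
Log2 intensity of the brighter (left) and dimmer (right) tested Cd44 probe is plotted by chip, with points coloured by group and open points for arrays where the probe was not detected. The dimmer probe is below 4.8 on every array of chips 6 to 8, while the brighter probe covers a similar range on all chips.

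Single arrays at least 1 log2 unit below the control mean for Cd44 and below all controls were Necrostatin-1 at 8.12, MK-801 at 8.42, Liothyronine at 8.50, Azathioprine at 8.51, Carbenoxolone at 8.59 and MitoPBN at 8.66. On these 6 arrays 2.86% (MK-801) to 5.5% (MitoPBN) of all probes met the rule on the low side, against 2.39% over all 38 compound arrays. The repeat of MitoPBN read 8.78, and the repeats of Z-VAD-FMK 9.36 and 9.31. For Z-VAD-FMK the Cd44 gap was 0.05, against 2.28 for Lcn2, while for MitoPBN the gaps were close, 0.12 and 0.16. The 1 array that met the rule on the high side was 4-PPBP, a sigma receptor ligand, at 10.69. On that array 4.27% of all probes did so, against 1.7% over all compound arrays.

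**Figure D3:**
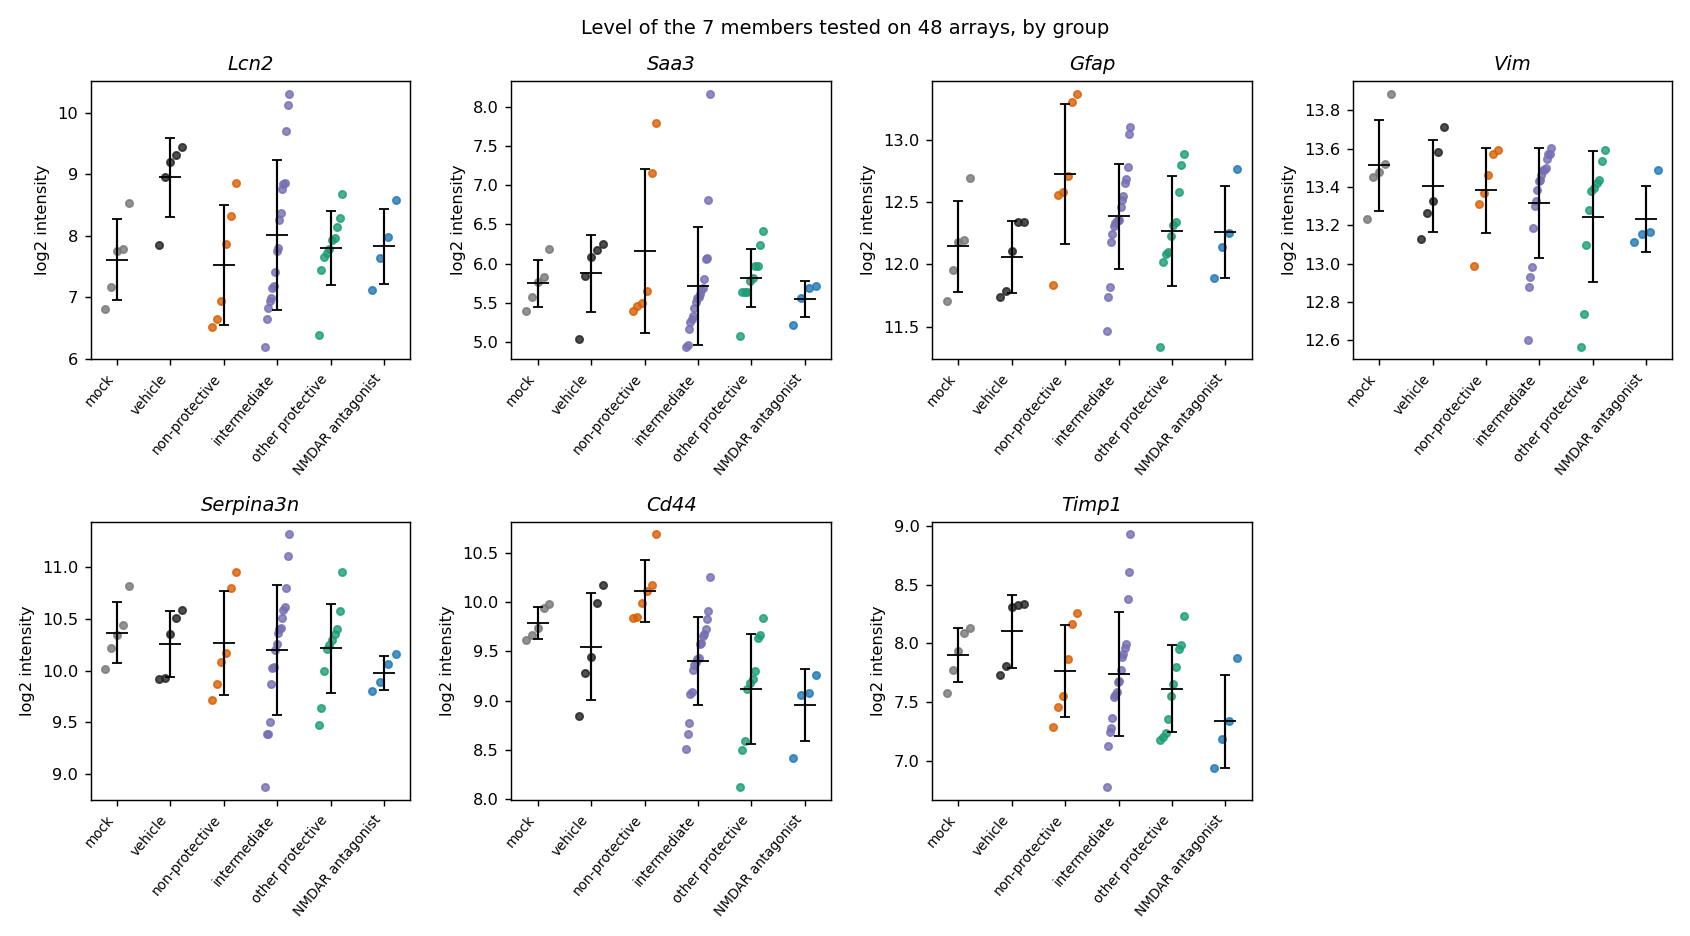
Each panel shows the log2 intensity of 1 tested member on all 48 arrays, grouped as mock, vehicle, non-protective, intermediate, other protective and NMDAR antagonist, with 1 point per array and the group mean ± SD in black. Cd44 is lower in both protective groups than in the non-protective compounds, Lcn2 is higher in the vehicle than in the mock controls, and most other groups overlap.

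**Figure D4:**
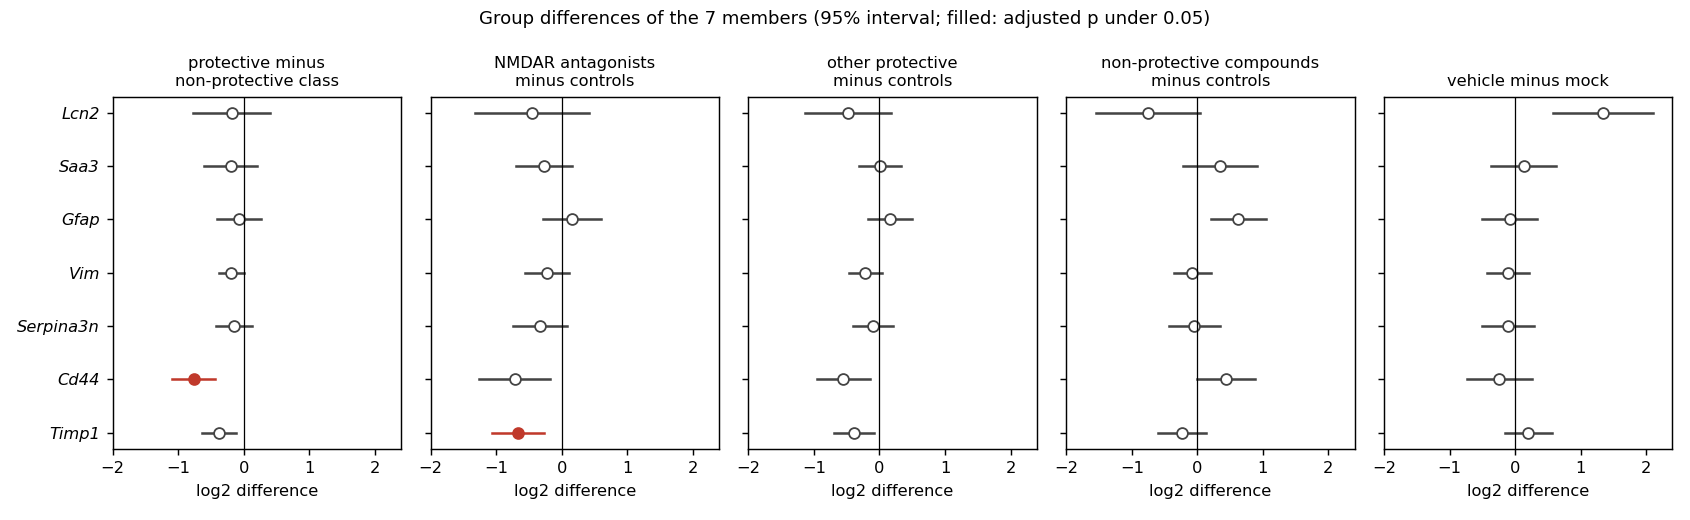
Points are log2 differences from limma with 95% intervals for the 7 tested members in 5 comparisons, filled where the adjusted p is under 0.05. Filled points are Cd44 for the classes and Timp1 for antagonists set against controls.

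Other genes of the reactive state were counted from lists chosen with earlier results of these data known. Of 31 other reactive astrocyte genes 20 were tested. In the class contrast 0 were higher and 3 lower, Hspb1 by -0.51, Cd109 by -0.45 and Psmb8 by -0.45. Hspb1 encodes a small heat shock protein, Cd109 a membrane protein that binds TGF-beta and Psmb8 a subunit of the immunoproteasome. Of all probes 3.42% passed on the low side in this contrast. The median of the 20 was -0.34, beside -0.01 for all probes.

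In the antagonists against controls 5 of the 20 were lower and 0 higher: B3gnt5 (-0.64), Hspb1 (-0.85), Ptx3 (-0.94), Cd14 (-0.58) and Nes (-0.80). Ptx3 encodes a long pentraxin, Cd14 a co-receptor for bacterial lipopolysaccharide and Nes the filament nestin. Of all probes 8.13% passed on the low side here. The median of the 20 was -0.56, beside -0.05 for all probes.

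Of 29 upstream signals and targets, 19 were tested. Il6, Lif, Cntf, Il11, Il1b, Tnf and the receptor genes Il6st, Lifr and Il1r1 were not detected on enough arrays, and Nfkb1 has no probe in the annotation. In the class contrast 1 was lower, Osm, the cytokine oncostatin M, by -0.38, where 3.42% of all probes passed on the low side. The median of the 19 was -0.15, beside -0.01 for all probes. Against controls the antagonists had 6 lower and 0 higher, where 8.13% of all probes passed on the low side, with a median of -0.39 beside -0.05 for all probes. Cebpd, a C/EBP transcription factor, was lower by -0.80 (SE 0.23), and Socs3, the feedback inhibitor of STAT3 signalling, by -0.63 (SE 0.19). Tnfrsf1a, a receptor for TNF, was lower by -0.47, Jak1, a kinase below interleukin-6 type receptors, by -0.44, Rela, an NF-kB subunit, by -0.39 and Nfkbiz, a nuclear regulator of NF-kB, by -0.45.

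Of 16 partners of the members 11 were tested, and 0 passed in the class contrast. In the antagonists Mmp14, a membrane metalloproteinase that cleaves CD44, was lower by -0.71 and Cr1l, a regulator of complement C3, by -0.47. Slc22a17, a receptor for lipocalin 2, was higher by 0.65. Of all probes 8.13% passed on the low side and 11.2% on the high side, and the median of the 11 was -0.40, beside -0.05 for all probes.

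Cell type markers moved in the same contrast. All 8 neuron markers were higher in the antagonists than in the controls, where 11.2% of all probes passed on the high side, with a median of 1.80, and their summed intensity was 10766 to 17448 in the 4 antagonist arrays and 2570 to 10897 in the 10 control arrays. Of the 12 tested astrocyte markers 3 were lower, where 8.13% of all probes passed on the low side: Mlc1 by -0.76, Slc1a3 by -0.43 and Gja1 by -0.37. The median of the 12 was -0.09, beside -0.05 for all probes. The sum of the astrocyte markers was 17456 to 23772 in the antagonists and 21301 to 28476 in the controls. In the class contrast 2 of 8 neuron markers were higher, where 4.21% of all probes passed on the high side. There 1 of 12 astrocyte markers, Mlc1, was lower by -0.48, where 3.42% of all probes passed on the low side. The median of the 12 was 0.10 in that contrast, beside -0.01 for all probes, so the list as a whole did not share the direction of Mlc1. Of 9 microglia and macrophage markers with a probe, 5 were tested and 0 passed in either contrast. The tested markers of fibroblasts and mural cells (5), oligodendrocyte lineage (5), ependymal cells (3) and endothelial cells (1) also gave 0 calls by limma in both contrasts, with medians in the antagonists of -0.61, -0.14, -0.74 and -0.75. Fibroblast and mural markers summed to 1197 to 2812 in the antagonists and 2217 to 13872 in the controls. The part of these markers in the Timp1 and Cd44 results was not tested.

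Of the mechanism labels with at least 3 compounds, the 5 other than NMDAR antagonist called none of the 7 tested members against controls by limma. The antagonist label, set against controls in its own fit of 24 arrays, called Timp1 (adjusted p = 0.0175). Taken in the fit of all mechanism labels, which was added after seeing the results, it again called Timp1 (-0.67, adjusted p = 0.0416 by limma) and no other member. The moderated F test over all these labels and the controls, antagonists included, called none of the 7 (0.163% of probes passed; smallest adjusted p of a representative probe 0.277, for Cd44). For the 5 labels the share of probes passing was 0% for anti-apoptotic, 0.18% for enzyme inhibitor, 0.135% for immunomodulator, 0.0225% for ion channel blocker and 0% for receptor agonist compounds. Members with an unadjusted p under 0.05 were Lcn2 and Gfap for enzyme inhibitors (-0.77 and 0.42), Lcn2 for ion channel blockers (-1.13) and Gfap for receptor agonists (0.56).

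Cd44 had its highest mean in compounds labelled receptor agonist, 9.95 ± 0.49 (SD, n = 5), and among labels with several compounds its lowest in NMDAR antagonists, 8.95 ± 0.37 (SD, n = 4). The neighbours in this order overlapped. Lcn2 had a mean of 6.82 ± 0.18 (SD over 3 arrays) in compounds labelled free radical scavenger, and 1 of the 3 arrays lay below every control, but 2 of them are repeats of MitoPBN. The intermediate compounds as a group differed from the controls in 0 of 7 members, where 6.81% of probes passed. Their Gfap difference was 0.31 (95% interval -0.0035 to 0.61, adjusted p = 0.209 by limma), and 0 members had an unadjusted p under 0.05.

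Most pairs of members were weakly correlated over the 48 arrays. Of 21 pairs of tested members, 2 had a Pearson r over 0.5 and 12 an r between -0.2 and 0.2, with a median of 0.15. All pairs were computed over 48 arrays that share chips and controls, with p from 100000 permutations adjusted over the 21 pairs, of which 4 passed 0.05. The share of other gene pairs reaching such values was not computed, so a pass does not set members apart from other genes. Serpina3n and Timp1, both inhibitors of proteases, had r = 0.56 (rho 0.57, adjusted permutation p = 0.000315), and 0.54 without the 2 arrays farthest from the median of Serpina3n. Gfap and Cd44 had r = 0.55 (rho 0.53, adjusted permutation p = 0.000315), and 0.46 without the 2 arrays farthest out. Vim and Cd44 followed with r = 0.49 (rho 0.47, adjusted permutation p = 0.0021) and 0.44 without the 2 farthest arrays. Gfap and Serpina3n had r = 0.40 (adjusted permutation p = 0.0239) but an adjusted p of 0.0712 for the rank correlation by permutation. Gfap and Vim, both filaments of astrocytes, had r = 0.30 (adjusted permutation p = 0.104). Gfap and Lcn2 had r = 0.02. Over the 10 controls alone 9 of the 21 pairs had an r over 0.5, with a median of 0.42, and 0 pairs passed 0.05 after adjustment over the 21 by permutation. The highest was Vim with Cd44, with r = 0.82 and rho 0.82 (permutation p = 0.00412 and 0.00638, adjusted 0.0865 and 0.134), and 0.81 without the 2 farthest controls. Gfap with Cd44 had r = 0.69 and rho 0.72 there (permutation p = 0.0274 and 0.0230, adjusted 0.249 and 0.158), and 0.85 without the 2 farthest controls. Over the 38 compound arrays 2 of the 21 pairs had an r over 0.5.

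**Figure D5:**
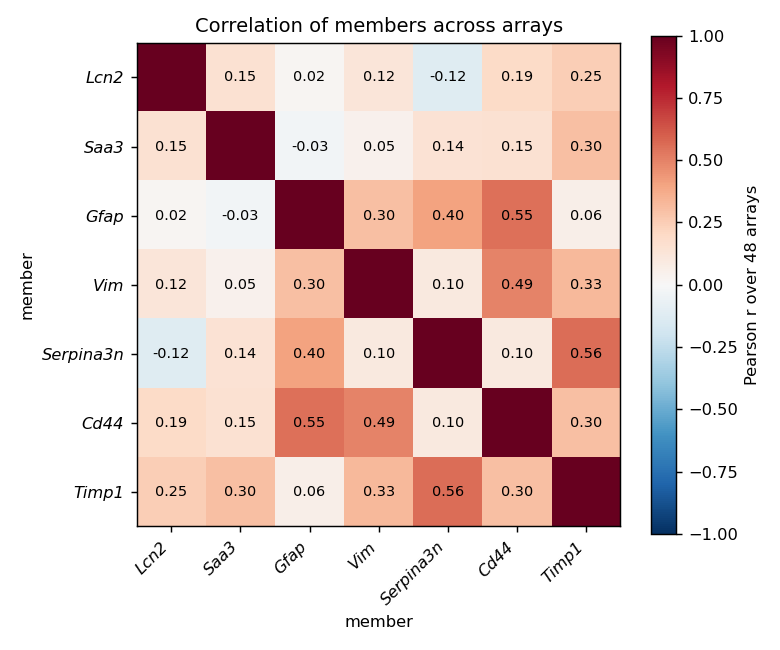
Cells give the Pearson r between pairs of tested members over 48 arrays, blue below 0 and red above 0. The values for Serpina3n with Timp1 (0.56) and Gfap with Cd44 (0.55) stand highest, while Lcn2 and Saa3 are near 0 with most others.

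With chip means subtracted, r was 0.59 for Serpina3n with Timp1, 0.56 for Vim with Timp1 and 0.51 for Gfap with Cd44. Vim with Timp1 had r = 0.33 without that step. The promoters of Serpina3n with Timp1 and of Gfap with Cd44 are shown because these pairs had the highest r before chip means were subtracted. They come from RefSeq (GRCm38.p6), 5′ to 3′ on the gene's strand with the same window, at chr12:104406458-104406757 (plus strand) for Serpina3n, chrX:20869916-20870215 (plus strand) for Timp1, chr11:102897151-102897450 (minus strand) for Gfap and chr2:102901616-102901915 (minus strand) for Cd44. The start used lies 62 bases inside the annotated gene's outer end for Serpina3n and 4 bases inside it for Cd44, and is the outer end for Timp1 and Gfap. Capitals mark matches to the STAT, NF-kB, AP-1 or C/EBP motifs given above.
Serpina3n: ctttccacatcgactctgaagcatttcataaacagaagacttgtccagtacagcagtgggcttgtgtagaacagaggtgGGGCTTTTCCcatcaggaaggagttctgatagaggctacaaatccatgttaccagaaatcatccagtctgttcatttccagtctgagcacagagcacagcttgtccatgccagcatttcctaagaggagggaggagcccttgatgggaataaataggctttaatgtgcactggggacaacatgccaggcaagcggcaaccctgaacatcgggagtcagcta
Timp1: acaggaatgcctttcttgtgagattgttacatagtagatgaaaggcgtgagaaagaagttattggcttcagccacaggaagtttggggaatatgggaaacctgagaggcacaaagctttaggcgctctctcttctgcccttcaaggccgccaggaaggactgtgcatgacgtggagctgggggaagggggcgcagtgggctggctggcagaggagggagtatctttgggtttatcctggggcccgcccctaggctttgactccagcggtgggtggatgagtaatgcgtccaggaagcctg
Gfap: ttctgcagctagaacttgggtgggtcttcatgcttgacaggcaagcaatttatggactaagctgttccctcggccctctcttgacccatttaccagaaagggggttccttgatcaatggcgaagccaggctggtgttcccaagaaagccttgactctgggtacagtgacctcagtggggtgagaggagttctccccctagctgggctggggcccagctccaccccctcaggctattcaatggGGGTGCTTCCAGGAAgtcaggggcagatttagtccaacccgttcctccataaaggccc
Cd44: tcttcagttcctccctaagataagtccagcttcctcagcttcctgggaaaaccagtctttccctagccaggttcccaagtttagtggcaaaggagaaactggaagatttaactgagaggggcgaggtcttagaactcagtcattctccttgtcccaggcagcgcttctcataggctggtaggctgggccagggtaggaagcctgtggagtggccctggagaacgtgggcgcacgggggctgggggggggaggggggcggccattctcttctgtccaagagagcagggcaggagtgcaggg

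The Serpina3n window holds 1 NF-kB match, GGGCTTTTCC, starting at -171, and the Timp1 window holds none of the 4 motifs. The Gfap window holds an NF-kB match, GGGTGCTTCC, at -8 that overlaps a STAT match, TTCCAGGAA, at -2, and the Cd44 window holds none. Of all promoters searched 5.56% hold the NF-kB motif, 8.33% the STAT motif and 7.79% the AP-1 motif. Neither pair shares a motif in these windows, and none could be shared, since Timp1 and Cd44 hold no match. The Vim window, not shown, holds 1 NF-kB match, GGAAAGCCCC, read on the opposite strand at -223. Vim and Cd44 thus share none either.

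The genes whose levels followed each member most closely were sought among 9853 others over the same 48 arrays, as a description. Lcn2 was followed by Tgm1, a transglutaminase of the reactive astrocyte list (r = 0.73), LOC547349 (0.66) and Cd72, a B cell surface protein detected on 17 arrays (0.63). Saa3 was followed by Tlr2, a receptor for bacterial lipoproteins (r = 0.68), Cxcl16, a chemokine (0.66), and Ccl5, a chemokine detected on 8 arrays (0.65). The rank correlations of the latter pair were lower, with rho of 0.41 and 0.26.

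Gfap was followed by Kdm3a (r = 0.67), Gnai2 (0.65) and Nfic (0.64). Vim was followed by 1700012B09Rik (0.87), Spaca9 (0.85) and Ddr1, a collagen receptor (0.85). Serpina3n was followed by Slc14a1, a urea transporter (0.74), Net1 (0.70) and Gfra1, a receptor for GDNF (0.70). Cd44 was followed by Plpp2 (0.82), Ttyh2 (0.81) and Itpkb, an inositol kinase (0.78). Timp1 was followed by S1pr2, a sphingosine phosphate receptor (0.69), Hspb1 (0.67) and Myo9b (0.66).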

How the data were processed

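Deposited bead intensity, linear and unscaled between arrays as its values show, came from BeadStudio per the submitters' processing notes. The sources used here do not give its settings. Per the file headers each intensity is followed by a detection p-value. The deposited series matrix holds that intensity less 1 constant per array, save 8 values off by over 0.1, and served as an alternative. All 48 arrays were matched to samples (0 columns without one).

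For 46632 probes, limma's nec removed background using the detection p-values (offset 16), followed by quantile normalization and log2. Probes with a detection p under 0.01 on at least 6 arrays were kept (17815; 13937 with a symbol, 9869 genes). Symbols come from an old platform annotation (29976 probes with 1 symbol, 10 with several, 16646 with none, 0 updated). Precision is limited by the number of arrays.

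Groups follow the labels for class, mechanism and solvent. The fits used lmFit and eBayes of limma 3.58.1, under R 4.3.3 and the data.table package (1.17.8), and p-values, all two-sided, were adjusted by Benjamini and Hochberg over all tested probes (threshold 0.05). The antagonists, other protective compounds and controls shared 1 fit. Protective compounds, non-protective compounds and controls shared another. Repeat arrays were averaged where intermediates, mechanisms or the slope were fitted, and for the slope their protection ratios were averaged too. Members, lists and comparisons were chosen with earlier results of these data known. The probe with the highest mean stands for a gene, all member probes are accounted for, the 3 genes with the highest r are named for each member, and list members are named by smallest p. Pair statistics, motif searches and figures used Python 3.11.15 with numpy 2.4.6, scipy 1.17.1, pandas 2.3.3 and matplotlib 3.10.9. The limma fits and pair statistics were tested on simulated data. Alternatives were median scaling, no background correction, no detection filter, the series matrix, terms for chip, position or solvent, leaving arrays out, and the other tested probe.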

Additional observations from a re-analysis of the deposited data

Results flagged for a closer look

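Vim in the 4 NMDAR antagonist arrays had 1 value far from the others: Memantine read 13.49 on the log2 scale, and the nearest of the other 3 read 13.17. The gap was 0.862 of the group's range, above the limit of 0.829 for 4 samples. Of 45 member probes and groups of 4 to 10 arrays examined, this was the 1 that passed, where chance alone passes about 1 in 20.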

How the results depend on the processing

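Over the alternatives run, Cd44 kept its negative class difference in all 12 (-1.04 to -0.58) and passed in 7, and Timp1 kept its negative difference between antagonists and controls in all 11 (-0.85 to -0.53) and passed in 8. For Cd44 in the latter comparison median scaling gave a pass (-0.74, adjusted p = 0.0401 by limma, 1 of 12 alternatives). Differences that turned sign were uncalled in the main setting. With chip or position as a term the first array stood for repeated compounds. The causes were not tested. The limits to chips 1 to 5 and to chips 6 to 8, the fit of the antagonists with all mechanism labels, and leaving out Nimodipine were chosen after seeing the data. No alternative shifted the median of all probes by over 0.1.

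The count of probes called by limma in the class contrast (1359) moved to 249 with no detection filter, to 406 with chip as a block, and to 0 with position as a term, without the antagonists, without the controls and on chips 6 to 8. Antagonists against controls (3445) moved to 838 with position, and leaving out 1 antagonist gave 1665 (without MK-801) to 4102 (without Memantine). Antagonists against other protective compounds (1024) moved to 641 with median scaling and 331 with position, and leaving out 1 antagonist gave 110 to 1471. Other protective compounds against controls (148) moved to 75 with median scaling, 65 with no filter, 83 with the series matrix, 57 with chip and 283 with position. With median scaling these were 72 higher and 3 lower, against 127 and 21 in the main setting, and for enzyme inhibitors 6 and 3 against 27 and 5. Non-protective compounds against controls (3) moved to 6 with chip, and intermediates (1213) to 711 with no filter and 1893 with chip. Vehicle against mock (0) gave 0 to 780 when 1 control was left out, 780 without vehicle 5 and 12 without mock 4. Enzyme inhibitors (32) moved to 9 with median scaling, 7 with no filter, 21 with the series matrix and 10 without Clofibric acid, immunomodulators (24) to 13, 15 and, with chip, 120, and ion channel blockers (4) to 0 with median scaling and without Nimodipine and to 106 with no filter.

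In the class contrast the sign turned for Gfap with median scaling (0.030) and chip (0.017), Serpina3n with position (0.20) and on chips 6 to 8 (0.15), Lcn2 without controls (0.28) and on chips 1 to 5 (0.26), and Saa3 on chips 6 to 8 (0.21). In antagonists against controls it turned for Serpina3n with position (0.15) and Gfap without 1 antagonist (-0.011 without Ifenprodil, to 0.28). In antagonists against other protective compounds it turned for Lcn2 with chip (-0.035) and without 1 antagonist (-0.22 to 0.26), Gfap with position (0.061) and without 1 antagonist (-0.18 to 0.12), Vim without 1 antagonist (-0.099 to 0.025), and Cd44 without 1 antagonist (-0.26 to 0.016, the latter without MK-801) and with the other probe (0.015). In other protective compounds against controls it turned with position for Saa3 (-0.29) and Serpina3n (0.22). In vehicle against mock it turned for Vim with median scaling (0.068), and for Gfap (-0.19 to 0.054) and Serpina3n (-0.19 to 0.0048) when 1 control was left out, the upper values without mock 3. The slope turned for Vim with median scaling (1.5e-05) and for Lcn2 without Clofibric acid (-0.0014) and without Rolipram (-0.0055). Some differences kept their sign but changed widely in size. Lcn2 in antagonists against controls ran from -2.27 to -0.21 over 11 alternatives, against -0.45 in the main setting. In other protective compounds against controls Lcn2 ran from -2.29 to -0.41 over 6 alternatives, against -0.48. Lcn2 passed in 0 of these (smallest adjusted p 0.0720 and 0.0628 by limma).

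Among mechanisms, anti-apoptotic compounds turned for Serpina3n with median scaling (0.038) and chip (0.086) and Saa3 with no background correction (0.0032), the series matrix (0.013) and chip (0.074). Enzyme inhibitors turned for Vim with median scaling (0.026) and chip (0.0053), Saa3 with chip (0.0044) and Serpina3n without Clofibric acid (-0.0047). Immunomodulators turned for Vim (0.016) and Serpina3n (-0.034) with median scaling and for Vim (0.15) and Timp1 (0.16) with chip. Ion channel blockers turned for Gfap with median scaling (-0.025), chip (-0.11) and the other probe (-0.25) for Cd44 with the other probe (0.15) and for Vim without Nimodipine (0.057), and receptor agonists for Saa3 with chip (-0.0058).

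Mock and vehicle controls share numbers in the labels. Same-numbered arrays had correlations of -0.14 to 0.15, so the numbers were not taken to pair them, and with the replicate block 0 probes passed, as without it.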
